A study of Homo sapiens with 94 samples.

Results

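CCN1 (CYR61) and CCN2 (CTGF) were followed in 94 NCI-H226 xenograft tumors after a single dose of the TEAD inhibitor K-975. They were taken as the entries carrying the symbol CYR61 or CTGF, which gave 2 of the 20239 genes in the table. CCN1 (ENSG00000142871.16) lies on the plus strand at chr1:85580761-85583962, and CCN2 (ENSG00000118523.5) on the minus strand at chr6:131948176-131951373 (GRCh38). Both are protein-coding genes with 5 exons in GENCODE 29.

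NCI-H226 is an established human line of malignant pleural mesothelioma with a deletion of NF2, and every tumor of the series, controls included, was a subcutaneous graft of this line in an SCID mouse, which lacks mature T and B cells. K-975 was given once at 30, 100 or 200 mg/kg in 3 separate studies, with tumors taken 1 h, 3-6 h or 24 h later. Vehicle mice received a mixture of ethanol, Solutol and glucose, and untreated mice received nothing. The series holds 25 tumors at 1 h, 45 at 3-6 h and 24 at 24 h, namely 15 untreated, 19 vehicle and 20 for each dose. The dosing volume was 20 mL/kg for vehicle and for the 200 mg/kg dose but 10 mL/kg for both lower doses. At 3-6 h each dose and the vehicle had 2 cage groups of 5 mice, and the labels do not say which was taken at 3 h and which at 6 h. In the 1 h and 24 h studies all mice of a treatment shared 1 cage group, and an effect of the cage cannot be told apart from one of the treatment. Each time point was a study of its own, so time and study cannot be told apart either.

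CCN1 and CCN2 encode secreted matricellular proteins of the CCN family, which bind integrins and heparan sulfate proteoglycans and act on adhesion, migration, matrix production and angiogenesis. Both genes are textbook targets of YAP1 and TAZ, co-activators that bind DNA through TEAD transcription factors. NF2 (merlin) acts upstream in the Hippo pathway, whose LATS kinases keep YAP1 and TAZ out of the nucleus. TEAD proteins carry a palmitate in a central pocket, and K-975 binds at that pocket. CCN1 is also an immediate early gene of growth factor signaling, and CCN2 is also induced by TGF-beta.

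The promoter of CCN2 is shown because TEAD proteins bind the letters GGAATG or their reverse complement. The RefSeq promoter table (GRCh38.p14) holds an entry for 1 of the 2 genes, CCN2, and none for CCN1. The stretch lies at chr6:131951323-131951622 on the minus strand, runs from 250 bases before the start to 50 after it, and is written 5′ to 3′ with GGAATG in capitals.

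CCN2 promoter: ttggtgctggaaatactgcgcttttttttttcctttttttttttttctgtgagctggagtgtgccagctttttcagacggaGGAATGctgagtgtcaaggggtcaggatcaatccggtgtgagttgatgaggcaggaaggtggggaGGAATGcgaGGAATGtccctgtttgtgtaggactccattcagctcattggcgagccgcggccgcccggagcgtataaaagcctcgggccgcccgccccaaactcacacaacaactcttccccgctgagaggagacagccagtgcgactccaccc

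GGAATG occurred 3 times in this promoter, at -169 to -164, -104 to -99 and -95 to -90 from the start, each time on the strand of the gene. On either strand, 14% of 35116 promoters of the same length held at least 1 GGAATG and 0.128% held 3 or more. CAGAC, the core of the SMAD binding site, occurred once at -177 to -173 and was present in 45.3% of promoters. TATAAA, the TATA box, stood at -32 to -27 and was present in 11.5% of promoters. The AP-1 letters TGANTCA were not in this window, and 7.71% of promoters held them. None of these matches overlapped another. Of 20 other YAP/TAZ target genes, 17 had a promoter entry and 8 of these held GGAATG. These are matches of letters, and binding was not measured.

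Of the 94 libraries, 91 held 11299 to 11620 genes at an FPKM (fragments relative to transcript length and to the library's mapped total) of at least 1. The other 3 were shallow: 1 at 200 mg/kg and 1 h held 8497 such genes, 1 at 100 mg/kg and 24 h held 7163, and 1 at 30 mg/kg and 24 h held 695. In these libraries CCN1 stood at 176, 57.5 and 425 FPKM and CCN2 at 4.74, 7.91 and 0 FPKM. The values below are those of the 91 libraries, and results that rest on leaving out the 3 are also given with all 94. Within the 91, vehicle libraries at 24 h held 11311 to 11377 such genes and those at 200 mg/kg 11380 to 11568, without overlap. Untreated libraries at 24 h held 11299 to 11399. At 200 mg/kg and 24 h, the library with 11380 held 167 FPKM of CCN1, and those with 11508 to 11568 held 71.9 to 99.9 FPKM. How CCN1 and CCN2 relate to this count was not tested. The highest correlation between any 2 libraries was 0.981, and each was counted as 1 tumor. Of 7 mesothelial markers MSLN, CALB2, KRT5, KRT19, WT1 and PDPN were present, and UPK3B had a median of 1.50 FPKM. Genes of other cell types were mixed within each list. PECAM1 was at 0 in 79 of the 91 libraries, but the endothelial receptor KDR had a median of 63.9 FPKM and the other 3 endothelial genes medians of 0.989 to 1.59. The leukocyte gene PTPRC was at 0 in 24 and LYZ in 83, while CD68 had a median of 139 FPKM. The fibroblast gene COL1A2 was at 0 in 85, while COL1A1, COL3A1 and PDGFRB had medians of 560, 267 and 32.0 FPKM. How reads from mouse cells were treated is not given in the sources used here. In bulk tumors fewer cells and less RNA per cell cannot be told apart.

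CCN1 was the more abundant of the pair per length in every library used. Its median level over the 91 libraries was 173 FPKM, against 9.19 FPKM for CCN2, although libraries were enriched with capture probes and a level between genes also depends on capture. Means were taken by study and treatment, with cage groups pooled. Mean CCN1 was highest in untreated tumors at 24 h (260 ± 43.8 FPKM, SD, n = 5) and lowest at 200 mg/kg and 24 h (106 ± 35.9, n = 5). Mean CCN2 was likewise highest in untreated tumors at 24 h (14.9 ± 2.60 FPKM) and lowest at 200 mg/kg and 24 h (4.32 ± 1.24). When the 15 combinations of study and treatment were ranked by mean, 0 of 14 steps between neighbours exceeded the larger SD of the pair for CCN1. For CCN2 1 of 14 did, namely the last step from 200 mg/kg at 3-6 h (6.04 ± 1.27 FPKM, n = 10) to 200 mg/kg at 24 h. Apart from that step, neighbouring groups differed by no more than the larger SD of the pair, and the comparisons below are made within a study.

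**Figure D1:**
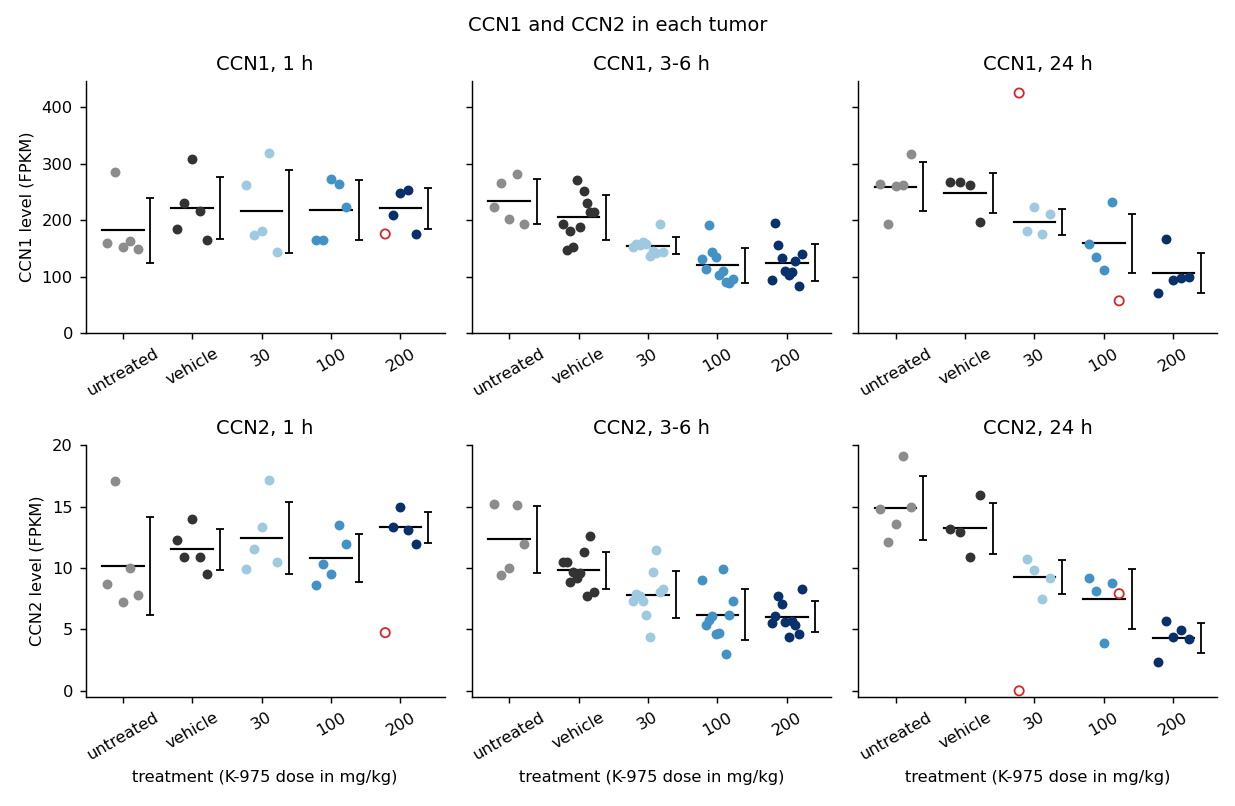
Level of CCN1 (top) and CCN2 (bottom) in FPKM in each tumor by treatment, for the 1 h, 3-6 h and 24 h studies, with the mean and SD of the libraries used as black bars and the 3 shallow libraries as open red circles. The dose groups overlap vehicle at 1 h, and at 24 h every tumor given 200 mg/kg lies below every vehicle tumor for both genes.

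At 1 h CCN1 and CCN2 did not pass the test at any dose. CCN1 was 185, 231, 309, 217 and 166 FPKM in the 5 vehicle tumors and 210, 248, 253 and 176 FPKM in the 4 tumors given 200 mg/kg. The CCN1 values at 100 mg/kg were 165, 165, 274, 265 and 223 FPKM, and those at 30 mg/kg were 262, 173, 180, 320 and 143 FPKM. These groups overlapped throughout. CCN2 was 12.3, 10.9, 14.0, 10.9 and 9.53 FPKM with vehicle and 13.3, 15.0, 13.1 and 11.9 FPKM with 200 mg/kg. At 100 mg/kg CCN2 was 8.63, 10.3, 9.53, 13.5 and 12.0 FPKM, and at 30 mg/kg 9.90, 11.5, 13.3, 17.1 and 10.5 FPKM, again overlapping vehicle. The log2 fold changes of CCN1 were -0.07, -0.02 and 0.02 at 30, 100 and 200 mg/kg, and those of CCN2 were 0.09, -0.09 and 0.20. The smallest unadjusted p of these 6 in limma was 0.337. Over all 12995 genes tested, limma called 0 genes in either direction at 30 and at 200 mg/kg and 0.0077% at 100 mg/kg, while 4.4%, 5% and 3.35% had an unadjusted p under 0.05 at 30, 100 and 200 mg/kg.

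Untreated tumors gave a second set of controls. At 1 h, CCN1 was 160, 285, 153, 163 and 149 FPKM and CCN2 8.73, 17.1, 7.22, 10.00 and 7.81 FPKM in the 5 untreated tumors, of which 1 was the highest for both genes. Vehicle and untreated tumors did not differ past the threshold in any study. The log2 difference of vehicle from untreated was 0.30, -0.19 and -0.06 for CCN1 and 0.22, -0.29 and -0.16 for CCN2 at 1, 3-6 and 24 h, with a smallest limma adjusted p of 0.989. Over all genes limma called 0% in each of these comparisons, with 4.73%, 4.82% and 4.19% at an unadjusted p under 0.05.

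In the 3-6 h study both genes fell at 100 and 200 mg/kg. CCN1 ranged from 148 to 271 FPKM (median 204) in 10 vehicle tumors, from 137 to 193 (median 155) at 30 mg/kg, from 89.4 to 192 (median 112) at 100 mg/kg and from 83.2 to 195 (median 119) at 200 mg/kg. CCN2 ranged from 7.70 to 12.6 FPKM (median 9.63) with vehicle, from 4.35 to 11.5 (median 7.80) at 30 mg/kg, from 2.96 to 9.88 (median 5.95) at 100 mg/kg and from 4.41 to 8.28 (median 5.64) at 200 mg/kg. Untreated tumors held 223, 266, 202, 283 and 193 FPKM of CCN1 and 15.2, 9.42, 9.97, 15.1 and 12.0 FPKM of CCN2. All dose groups overlapped vehicle at their upper end.

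At 100 mg/kg the mean of CCN1 differed from that of vehicle by -41.3% (log2 fold change -0.78, limma adjusted p = 0.000878), with 9 of 10 tumors below all vehicle tumors, and that of CCN2 by -36.7% (-0.63, adjusted p = 0.0132), with 8 of 10. Limma called 0.285% of all genes lower in this comparison. At 200 mg/kg the differences were -38.9% for CCN1 (-0.72, adjusted p = 0.00223) and -38.4% for CCN2 (-0.63, adjusted p = 0.0337), each with 8 of 10 tumors below all vehicle tumors and 0.0539% of all genes called lower. The values at 100 and 200 mg/kg lay side by side, and the higher dose gave no lower mean of CCN1 (120 ± 31.4 and 125 ± 33.0 FPKM). At 30 mg/kg the log2 fold changes were -0.38 for CCN1 (adjusted p = 0.463) and -0.31 for CCN2 (0.631), with 4 of 10 tumors below all vehicle tumors for each gene and 0.0077% of all genes called lower. These limma tests use the spread within cage groups. Their p-values do not measure the spread between cage groups of a treatment.

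These calls depended on the libraries and samples fitted. With all 94 libraries the fold changes at 3-6 h were the same, since no shallow library belongs to that study, but the shared estimate of spread was larger (SE 0.20 against 0.13 for CCN1) and the adjusted p rose to 0.323 and 1 for CCN1 and to 1 and 1 for CCN2 at 100 and 200 mg/kg. With libraries weighted by their quality over all 94, both genes passed at both doses, with adjusted p from 0.000934 to 0.0108. The call of CCN2 at 200 mg/kg was lost without any 1 of 12 of the 20 tumors (adjusted p up to 0.124), namely vehicle cage group 2 replicates 3, 4 and 5, vehicle cage group 3 replicates 1 and 4, cage group 4 replicates 1, 2 and 5 and cage group 5 replicates 1 to 4. That at 100 mg/kg was lost without replicate 3 of cage group 7 (adjusted p = 0.0532).

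**Figure D2:**
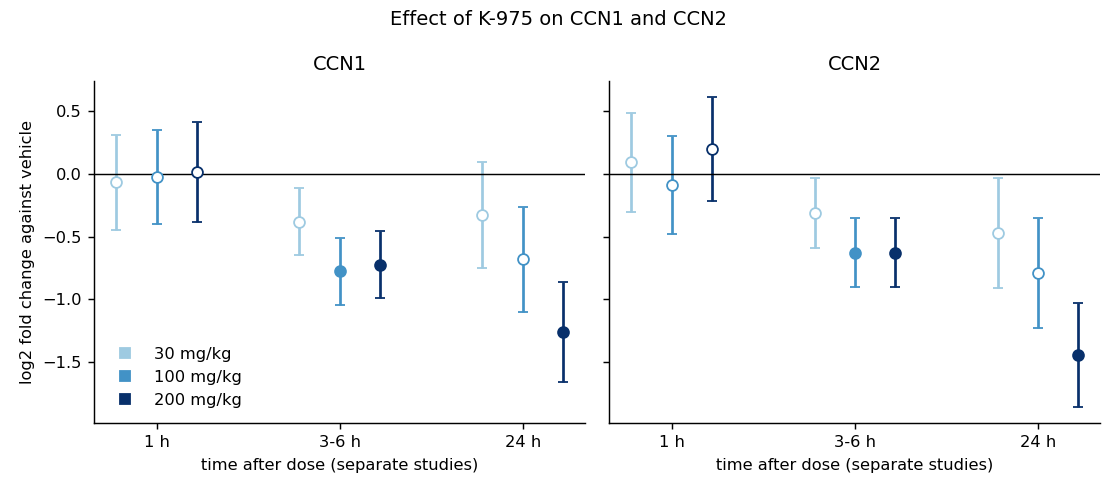
The log2 fold change against vehicle of CCN1 (left) and CCN2 (right) with its 95% confidence interval from limma, by time and dose, with filled circles for an adjusted p under 0.05. The intervals cross 0 at 1 h, and the lowest values are those of 200 mg/kg at 24 h, -1.26 and -1.44.

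The 2 cage groups of each treatment at 3-6 h were compared, since the labels do not say which was sampled earlier. At 100 mg/kg, CCN1 was 131, 114, 192, 143 and 135 FPKM in cage group 6 and 103, 110, 91.4, 89.4 and 95.8 FPKM in cage group 7. Every tumor of cage group 7 lay below every tumor of cage group 6 for CCN1, as was so for 0.723% of all genes, and the difference was -0.52 on the log2 scale (limma adjusted p = 0.448). CCN2 in the same tumors was 9.00, 5.39, 5.81, 6.09 and 4.66 FPKM in cage group 6 and 4.72, 9.88, 2.96, 6.18 and 7.34 FPKM in cage group 7, with a difference of -0.05. Thus the lower values of CCN1 in cage group 7 were not seen for CCN2, whose values overlapped.

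At 200 mg/kg, CCN1 was 95.0, 195, 157, 133 and 110 FPKM in cage group 4 and 103, 108, 128, 83.2 and 140 FPKM in cage group 5. CCN2 was 5.53, 6.06, 7.71, 7.08 and 5.63 FPKM in cage group 4 and 4.41, 5.65, 5.39, 4.61 and 8.28 FPKM in cage group 5. These cage groups overlapped, with log2 differences of -0.27 for CCN1 (limma adjusted p = 0.868) and -0.17 for CCN2. At 30 mg/kg the cage groups differed by -0.06 and 0.13, and the vehicle cage groups by 0.24 and -0.00, for CCN1 and CCN2.

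Set against the 10 vehicle tumors, cage groups 7 (100 mg/kg) and 5 (200 mg/kg) passed the test for both genes and the other 4 dosed cage groups did not. Through the adjustment, a call depends on the p-values of all genes in that comparison. On the log2 scale CCN2 fell by 0.54 in cage group 4 (200 mg/kg) and by 0.60 in cage group 6 (100 mg/kg). Among all genes ordered by p-value, CCN2 ranked 12 in cage group 6 and 119 in cage group 7. CCN1 fell by 0.59 in cage group 4 and by 0.52 in cage group 6. A missed call in cage groups 4 and 6 is thus not evidence of no change. CCN1 fell by 1.04 on the log2 scale in cage group 7 (limma adjusted p = 4.72e-05) and fell by 0.86 in cage group 5 (0.00524), with 5 of 5 tumors below all vehicle tumors in each. CCN2 fell by 0.65 in cage group 7 (0.0295) and fell by 0.71 in cage group 5 (0.0361), with 4 of 5 tumors below in each. Limma called 0.754% of all genes lower in cage group 7 and 0.239% in cage group 5, and 0.254% and 0.185% had every tumor below every vehicle tumor. The shares called lower were 0%, 0%, 0% and 0.0231% in cage groups 4, 6, 8 and 9. The other cage groups had log2 fold changes from -0.59 to -0.35 for CCN1 and from -0.60 to -0.24 for CCN2, with adjusted p from 0.415 to 0.969. The CCN2 call of cage group 7 was lost without any 1 of 4 tumors, its own replicates 1, 3 and 4 or replicate 4 of vehicle cage group 3 (adjusted p up to 0.225). That of cage group 5 was lost without any 1 of 8, its own replicates 1 to 4 or replicates 2 and 3 of vehicle cage group 2 or 2 and 4 of vehicle cage group 3 (up to 0.137). No cage group passed for either gene with all 94 libraries.

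**Figure D3:**
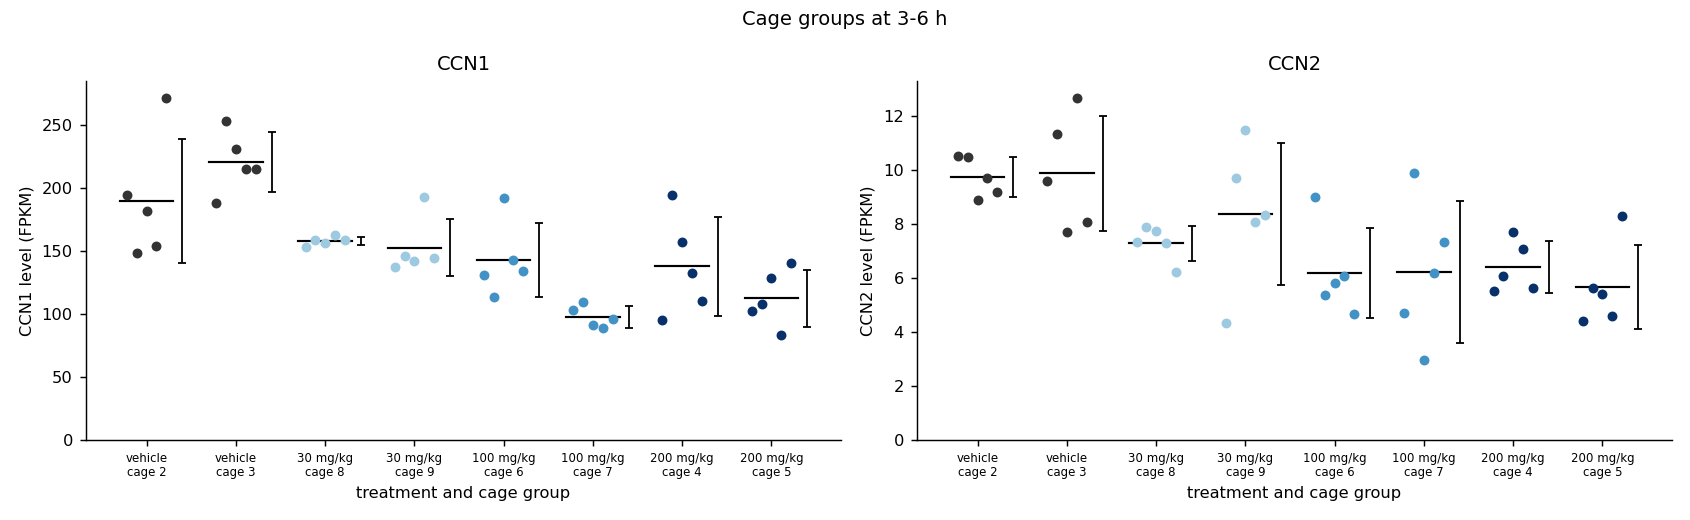
CCN1 (left) and CCN2 (right) in FPKM in each tumor of the 3-6 h study by treatment and cage group, with bars for the mean and SD (n = 5). The 5 tumors of cage group 7 lie between 89.4 and 110 FPKM of CCN1, below all 5 of cage group 6, while the CCN2 values of the same tumors spread from 2.96 to 9.88 FPKM.

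The 24 h study held the lowest single value of each gene over the 91 libraries. For CCN1 the mean of cage group 7 at 3-6 h (97.9 ± 8.50 FPKM) was below that of 200 mg/kg at 24 h (106 ± 35.9 FPKM). CCN1 was 268, 268, 263 and 196 FPKM in the 4 vehicle tumors, and 71.9, 167, 94.9, 98.3 and 99.9 FPKM in the 5 tumors given 200 mg/kg. CCN2 was 13.1, 12.9, 10.9 and 16.0 FPKM in vehicle tumors and 2.38, 5.72, 4.37, 4.93 and 4.20 FPKM at 200 mg/kg. For both genes each of the 5 treated tumors lay below all 4 vehicle tumors and all 5 untreated tumors, which held 264, 194, 260, 262 and 318 FPKM of CCN1 and 14.8, 12.1, 13.6, 19.1 and 15.0 FPKM of CCN2. The tumor with 167 FPKM of CCN1 was also the highest of its group for CCN2.

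At 200 mg/kg CCN1 fell by 1.26 on the log2 scale (SE 0.20, 95% confidence interval -1.66 to -0.86, limma adjusted p = 1.29e-05) and CCN2 fell by 1.44 (SE 0.21, interval -1.86 to -1.03, adjusted p = 2.1e-06). In linear terms the means differed from vehicle by -57.2% and -67.4%. Of all genes limma called 3.53% lower, and in 3.22% every treated tumor lay below every vehicle tumor. With all 94 libraries the fold changes were -1.26 and -1.44 with SE of 0.29 and 0.33 and adjusted p of 0.152 and 0.146, and in that fit limma called 0% of genes, with 4.51% at an unadjusted p under 0.05. With quality weights over the 94 libraries the fold changes were -1.36 (4.56e-08) and -1.45 (1.19e-08).

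The lower doses were intermediate at 24 h. At 100 mg/kg, CCN1 was 158, 135, 112 and 233 FPKM and CCN2 9.19, 8.12, 3.90 and 8.77 FPKM. Both were lowest in the same tumor, and 3 of 4 tumors for CCN1 and 4 of 4 for CCN2 lay below all vehicle tumors. The log2 fold changes were -0.68 (limma adjusted p = 0.0868) and -0.79 (0.0511), with means that differed from vehicle by -36.0% and -43.4%, and with 0.485% of genes called lower and 2.92% with every tumor below vehicle. Neither passed the threshold, but CCN1 did without replicate 4 (adjusted p = 0.0184), CCN2 did without replicate 1 or 4 (down to 0.0304), and both did with quality weights over all 94 libraries (0.0415 and 0.0443).

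At 30 mg/kg, CCN1 was 180, 223, 176 and 211 FPKM and CCN2 10.7, 9.82, 7.47 and 9.16 FPKM. Of the CCN1 values 2 lay inside the vehicle range, whereas all 4 of CCN2 lay below it. The log2 fold changes were -0.33 (limma adjusted p = 0.622) and -0.47 (0.461), with 0.0077% of genes called lower and 2.82% with every tumor below vehicle. With the library of 695 genes included, the log2 fold changes at 30 mg/kg were -0.11 for CCN1 and -1.14 for CCN2 (adjusted p = 0.0412), where that library held 425 and 0 FPKM. In that fit 21.4% of all genes were called lower and the median log2 fold change over all genes was -0.65.

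Both genes declined with dose at 3-6 h and 24 h, with vehicle taken as a dose of 0. At 24 h Spearman's rho with dose over 17 tumors was -0.854 for CCN1 (permutation adjusted p = 6e-05) and -0.883 for CCN2 (3e-05), and Pearson's r was -0.839 and -0.861 (permutation adjusted p = 0.00021 for each). At 3-6 h rho over 40 tumors was -0.695 (permutation adjusted p = 3e-05) and -0.659 (4.5e-05), and r was -0.611 (9e-05) and -0.565 (0.000285). Tumors were permuted freely although each cage group had a single dose, so these p-values do not measure the spread between cage groups. At 1 h rho over 19 tumors was 0.00724 (permutation adjusted p = 0.978) and 0.168 (0.488), and r was 0.0488 (0.842) and 0.213 (0.379). When 2 tumors lying farthest from the median dose were left out, r became -0.888 and -0.858 at 24 h, -0.660 and -0.552 at 3-6 h and -0.00994 and 0.00474 at 1 h. All tumors of a group share a dose, so more than 2 tied for farthest in each study. Which 2 were left out was therefore arbitrary, and these values do not test the weight of extreme tumors. The p-values were adjusted over the 3 studies for each gene. With the shallow libraries, r at 24 h was -0.721 for CCN1 and -0.413 for CCN2 (permutation adjusted p = 0.109), and rho was -0.794 and -0.752.

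Tested directly between doses at 24 h, 200 mg/kg lay below 30 mg/kg for both genes, by -0.93 on the log2 scale for CCN1 and -0.98 for CCN2 (limma adjusted p = 0.0143 for each), with no overlap of the tumors. This was so for 1.42% of all genes, and limma called 0.185% lower. With all 94 libraries the differences were -1.16 (adjusted p = 0.0290) and -0.31 (0.403), and 0 of 5 tumors at 200 mg/kg then lay below all at 30 mg/kg for CCN2. In fits of only the groups compared the adjusted p was 0.267 and 0.284. Between 200 and 100 mg/kg the log2 differences were -0.58 (adjusted p = 0.579) and -0.65 (0.504), and between 100 and 30 mg/kg -0.35 (0.987) and -0.32 (0.999). Limma called 0% and 0.0077% of genes lower in these, while 6.75% had an unadjusted p under 0.05 between 200 and 100 mg/kg. The difference of 200 from 30 mg/kg lost its call without any 1 of 3 tumors for CCN1 (adjusted p up to 0.107) and any 1 of 4 for CCN2 (0.116), replicate 1 at 200 mg/kg and replicates 3 and 5 at 30 mg/kg for both genes and also replicate 2 at 30 mg/kg for CCN2.

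The effect of 200 mg/kg differed between the 24 h and 1 h studies. The log2 fold change at 24 h minus that at 1 h was -1.28 for CCN1 (SE 0.28, limma adjusted p = 0.0146) and -1.65 for CCN2 (SE 0.30, 0.00100), where 0.323% of all genes were called lower. Without replicate 1 at 200 mg/kg and 24 h the adjusted p for CCN1 was 0.0502, and with all 94 libraries it was 0.827 for each gene. Between 24 h and 3-6 h the differences were -0.54 (adjusted p = 0.238) and -0.82 (0.0667), with 0.985% of genes called lower. Between 3-6 h and 1 h they were -0.74 and -0.83 (adjusted p = 1 for each, unadjusted 0.00286 and 0.00145), with 0% of genes called lower and 4.65% at an unadjusted p under 0.05. The test thus separated 24 h from 1 h, while the steps in between missed the threshold. The step of CCN2 from 3-6 h to 24 h passed without replicate 4 of cage group 5 or replicate 2 at 24 h, with an adjusted p down to 0.0258.

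The ratio of CCN1 to CCN2 within a tumor was compared to ask whether 1 gene responded more than the other. The mean ratio in vehicle tumors was 19.1, 21.4 and 19.4 at 1, 3-6 and 24 h, the last with an SD of 4.98 (n = 4). At 200 mg/kg and 24 h the mean ratio was 25.0 ± 4.56 (SD, n = 5). The test used the log2 ratio after 1 was added to each FPKM. The added 1 understates a change of CCN2, the lower gene, more than one of CCN1. Against vehicle this log2 ratio changed by -0.16, 0.07 and -0.18 at 30, 100 and 200 mg/kg at 1 h, by -0.07, -0.15 and -0.10 at 3-6 h and by 0.14, 0.11 and 0.18 at 24 h. In none of the 9 comparisons did the difference pass the test (permutation tests, exact where a group had under 10 tumors, unadjusted p from 0.238 to 0.706, adjusted p = 0.706). With 0.1 added in place of 1, all 9 comparisons kept their sign and stayed short of the threshold. The lower percent change of CCN1 at 24 h was thus within the spread of the ratio on these scales. The ratio of the FPKM with nothing added was not tested.

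Over all tumors of a study the pair varied together. Spearman's rho between CCN1 and CCN2 was 0.705 at 1 h (n = 24, permutation adjusted p = 0.00011), 0.646 at 3-6 h (n = 45, 3e-05) and 0.841 at 24 h (n = 22, 3e-05). Pearson's r was 0.694 (permutation adjusted p = 0.00014), 0.678 (1.5e-05) and 0.908 (1.5e-05), and without the 2 tumors farthest from the median CCN1 it was 0.612, 0.624 and 0.858. At 3-6 h and 24 h these values include the effect of dose on both genes. With all 94 libraries rho at 24 h was 0.610 (permutation adjusted p = 0.00198) and r was 0.250 (0.242).

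Within groups the relation was seen at 1 h. For deviations from the group means, rho was 0.571 at 1 h (permutation adjusted p = 0.0287), 0.207 at 3-6 h (0.199) and 0.369 at 24 h (0.198). Pearson's r was 0.695 (permutation adjusted p = 0.00846), 0.214 (0.123) and 0.596 (0.0567), and 0.484, 0.280 and 0.522 without the 2 farthest tumors. The rho at 1 h passed no longer without any 1 of 8 of the 24 tumors, with permutation adjusted p up to 0.12. These were untreated replicate 2, vehicle replicates 3 and 5, 30 mg/kg replicates 2, 4 and 5, 100 mg/kg replicate 1 and 200 mg/kg replicate 5. At 24 h it passed without vehicle replicate 4 (rho 0.532, permutation adjusted p = 0.0474).

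In untreated and vehicle tumors alone, rho was 0.927 at 1 h (n = 10, permutation adjusted p = 0.00126), 0.0643 at 3-6 h (n = 15, 0.982) and 0.0167 at 24 h (n = 9, exact permutation, 0.982). Pearson's r was 0.882 (permutation adjusted p = 0.00198), 0.196 (0.729) and 0.0750 (0.846), and 0.748, 0.204 and 0.133 without the 2 farthest tumors. The study at 1 h thus stood apart from the others in these values, and whether the studies differ was not tested.

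**Figure D4:**
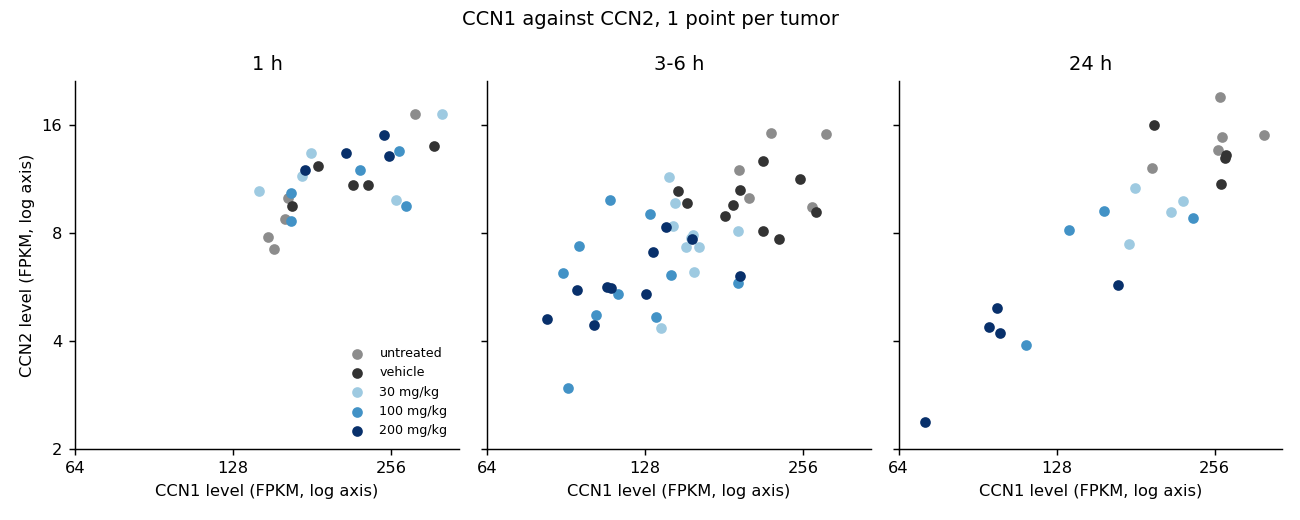
CCN2 against CCN1 in each tumor of the 91 libraries, both in FPKM on log2 axes, by study and treatment. Points rise together in each study (rho 0.705, 0.646 and 0.841), and at 24 h the tumors given 200 mg/kg lie at the lower left.

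Genes whose level followed the pair most closely were ranked by Spearman's rho over the 91 libraries, with 12994 other genes, as a description across libraries that share treatments. For CCN1 the highest were UAP1, an enzyme of amino sugar synthesis (0.795), NPPB, the natriuretic peptide B precursor (0.783), F3, tissue factor (0.772), CCN2 itself (0.769) and WWC1, the Hippo scaffold KIBRA (0.769). For CCN2 they were CCN1, ACTN1, an actin crosslinker (0.695), NPPB (0.682), UAP1 (0.661) and SYNPO2L, an actin-associated protein (0.645). By rank CCN2 was number 4 for CCN1, and CCN1 number 1 for CCN2. TXNIP, the thioredoxin-interacting protein, was among the 3 lowest for both (-0.755 and -0.689), with IQCN (-0.773) and PCDHGB2 (-0.741) for CCN1 and EPHB4 (-0.642) and SELENBP1 (-0.641) for CCN2.

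Once the group means were taken out, the lists differed. CCN1 then lay closest to FOSL1, an AP-1 subunit (0.793), CCL5, a chemokine (0.783), HK1, a hexokinase (0.773), BMAL2, a clock transcription factor (0.756), and HMGA1, a chromatin protein (0.755). CCN2 lay closest to ZEB2, a transcription factor (0.562), TNFRSF10D, a decoy receptor (0.518), MMADHC, a cobalamin protein (0.457), GNB4, a G protein subunit (0.443), and CD70, a TNF family ligand (0.441). The rho between CCN1 and CCN2 was then 0.376, which ranked 954 for CCN1 and 62 for CCN2. The median rho of deviations with CCN1 was 0.458 over the immediate early genes and 0.165 over the YAP/TAZ targets, and with CCN2 it was 0.109 and 0.145. Over all genes the median was -0.00831 for CCN1 and 0.00522 for CCN2, and the 95th percentile 0.434 and 0.249. With group means kept, over all 91 libraries, the order for CCN1 was the other way, 0.333 and 0.402, and CCN2 had 0.150 and 0.324. In untreated and vehicle tumors alone CCN1 had 0.455 and 0.227, and CCN2 0.110 and 0.213.

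Other targets of YAP1 and TAZ were set beside the pair. At 200 mg/kg and 24 h, 6 of 20 passed the test as lower and 0 as higher, with a median log2 fold change of -0.38 against 0.04 over all genes, beside 3.53% of all genes called lower. IGFBP3, a binding protein of insulin-like growth factors, fell by 1.80 on the log2 scale (limma adjusted p = 0.000208), from 168 ± 21.5 to 52.0 ± 26.1 FPKM. F3 fell by 1.43 (0.0163), from 105 ± 27.7 to 46.0 ± 39.5 FPKM, and NT5E, the ecto-nucleotidase CD73, fell by 1.04 (0.0313), from 262 ± 39.8 to 139 ± 64.8 FPKM. GADD45A, a stress response gene, fell by 0.56 (0.0365), AXL, a receptor tyrosine kinase, fell by 0.53 (0.00188) and CRIM1, a transmembrane regulator of BMP signaling, fell by 0.28 (0.0106). Of the 20, IGFBP3 alone had an estimate below that of CCN2, with overlapping intervals. Of the 20, 0 passed with all 94 libraries, where 0% of all genes were called.

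At 3-6 h, 1 of 20 targets passed at 200 mg/kg, beside 0.0539% of all genes called lower. AMOTL2, a scaffold that restrains YAP1, fell by 0.53 (limma adjusted p = 0.00176), from 28.2 ± 4.31 to 19.5 ± 4.44 FPKM. At 100 mg/kg it was again the 1 of 20 that passed and fell by 0.62 (adjusted p = 2.55e-05), beside 0.285% of all genes. At either dose 0 of 20 passed with all 94 libraries, where 0.00769% of all genes were called lower at 100 mg/kg and 0% at 200 mg/kg. At 1 h 0 of 20 passed at any dose, with medians from -0.05 to -0.00. At 30 mg/kg in every study, and at 100 mg/kg and 24 h, 0 of 20 passed, the last with a median of -0.21. At 1 h limma called 0%, 0.0077% and 0% of all genes in either direction at 30, 100 and 200 mg/kg. At 30 mg/kg it called 0.0077% lower in the 3-6 h and in the 24 h study, and at 100 mg/kg and 24 h 0.485%. With so few calls over all genes, 0 of 20 says little about these targets.

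Among the TEAD factors and their co-activators, 1 of 6 changed at 200 mg/kg and 24 h, beside 7.23% of all genes called in either direction. With all 94 libraries 0 of 6 did, where 0% of all genes were called. TEAD4 fell by 0.74 on the log2 scale (limma adjusted p = 3.75e-05), from 48.2 ± 2.96 to 28.4 ± 2.66 FPKM. YAP1 had 71.6 ± 6.89 FPKM with vehicle and 69.5 ± 8.13 with 200 mg/kg (log2 fold change -0.04), and WWTR1, which encodes TAZ, 14.7 ± 5.14 and 14.4 ± 3.74 (0.01). Of 12 immediate early genes 11 were tested and 0 passed at any dose or time, with a median at 200 mg/kg of 0.22 at 1 h, -0.09 at 3-6 h and -0.23 at 24 h. The share of all genes called in either direction ran from 0% at 30 mg/kg and 1 h to 7.23% at 200 mg/kg and 24 h.

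The rest of the CCN family was scarce. CCN3 and CCN5 had medians of 0.531 and 0.279 FPKM over the 91 libraries and were not called at any dose or time. CCN4 and CCN6 did not pass the filter and were listed at 0 in 50 and 90 of 91 libraries. Of 7 receptors of CCN proteins 1 was called at 200 mg/kg and 24 h, the integrin subunit ITGB5, which rose by 0.69 on the log2 scale (limma adjusted p = 0.0261) from 31.3 ± 6.39 to 51.3 ± 11.0 FPKM. Of all genes 3.69% were called higher in this comparison. With all 94 libraries 0 of the 7 receptors were called, where 0% of all genes were.

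Markers of cell types were set beside the 24 h result. Of the 7 mesothelial markers 3 rose at 200 mg/kg, MSLN by 0.40 (limma adjusted p = 0.0417), CALB2 by 0.39 (0.0199) and KRT19 by 0.32 (0.0316), beside 3.69% of all genes called higher. Of the 7, 0 passed with all 94 libraries, where 0% of all genes were called. The summed level of the 7 was 1971 to 2012 FPKM in vehicle tumors and 2256 to 3143 FPKM at 200 mg/kg, which did not overlap. It was 2236 to 2927 FPKM at 30 mg/kg and 2063 to 2958 FPKM at 100 mg/kg, also above vehicle. At these doses CCN1 and CCN2 were lower than with vehicle but not called. Their log2 fold changes were -0.33 and -0.47 at 30 mg/kg and -0.68 and -0.79 at 100 mg/kg. Untreated tumors, at 1636 to 2578 FPKM, overlapped every dose group. Sums for endothelial genes were 33.2 to 71.0 FPKM with vehicle and 31.2 to 93.9 FPKM with 200 mg/kg, for immune genes 146 to 223 and 129 to 208 FPKM, and for fibroblast genes 873 to 1070 and 774 to 1420 FPKM. These 3 overlapped, and 0 of 4, 0 of 4 and 0 of 5 tested genes were called. The part of the mesothelial markers in the fall of CCN1 and CCN2 was not tested.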

How the data were processed

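Total RNA of each tumor (miRNeasy kit) went into KAPA RNA HyperPrep libraries enriched with HyperCap probes. The authors deposited FPKM, with 1 column per tumor. These hold no read counts, so read depth is unknown and no count test or sampling interval was computed. The submitters' processing notes name STAR and GRCh38, and the quantification tool and annotation are not given in the sources used here. FPKM are scaled to each library's total, and where few transcripts were caught the genes present take high values. Of 20555 entries, 316 further entries of 284 repeated gene IDs were left out, which kept 20239. Blank cells (32) were read as 0.

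The 12995 genes reaching an FPKM of 1 in 4 or more libraries were tested. Limma 3.58.1 (R 4.3.3; lmFit, then eBayes with trend and robust) was fitted to log2(FPKM + 1) with 1 coefficient for each of 19 groups, with Benjamini-Hochberg adjustment over all genes and a threshold of 0.05. A fold change on this scale understates the change of low genes. Vehicle tumors were shared by the 3 doses of a study, and each tumor came from its own mouse. Libraries with fewer than 10000 genes at an FPKM of at least 1 (3 of 94) were left out of the main results. Trends, ratios and correlations were tested with two-sided permutation tests (numpy 2.4.6, with ranks from scipy 1.17.1). Tests of ratios were exact with under 10 tumors in a group. Correlations were exact with under 10 tumors in all, except those of deviations, which were permuted within groups. The others used 100000 permutations, whose smallest p is 1e-05. Apart from the deviations, tumors were permuted without regard to cage group. Trends were adjusted over the 3 studies for each gene, correlations over the 3 studies in each of 3 families, and ratios over 9 comparisons. Scripts were tested on simulated data.

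Genes named were the pair, members of the lists of CCN family, YAP/TAZ, TEAD, immediate early and CCN receptor genes and markers past the threshold at 200 mg/kg at 24 h or 3-6 h, and the 5 highest and 3 lowest in Spearman's rho with each of the pair. YAP1, WWTR1, CCN3 and CCN5 and the genes not past the threshold were named beside them. A further list, of TGF-beta targets, is not reported here. The pair, the lists and the depth limit were chosen with earlier results of these data known. Alternatives were all 94 libraries, with and without quality weights, no filter, a pseudocount of 0.1, quantile normalization, fits of only the groups compared, other controls, and leaving out each tumor.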

Additional observations from a re-analysis of the deposited data

Results flagged for a closer look

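Tumors far from the rest of their group were looked for among 38 groups over both genes, and chance alone marks about 1 in 20 groups. Over the 91 libraries 4 values in 3 tumors stood apart. In untreated tumors at 1 h, replicate 2 was the highest for both genes, with 285 FPKM of CCN1 and 17.1 FPKM of CCN2. Replicate 4 of the vehicle tumors at 24 h was the lowest of its group with 196 FPKM of CCN1, and replicate 4 of cage group 9 (30 mg/kg, 3-6 h) was the highest of its group with 193 FPKM of CCN1. With the shallow libraries included, replicate 1 at 30 mg/kg and 24 h stood apart with 425 FPKM of CCN1, and replicate 3 at 100 mg/kg and 24 h with 3.90 FPKM of CCN2.

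The effect of 200 mg/kg differed between the 24 h and the 1 h study by the interaction term in limma, by -1.28 for CCN1 and -1.65 for CCN2 on the log2 scale.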

How the results depend on the processing

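The alternatives gave 1692 values for 80 results, of which 23 were past the threshold, and 0 values of those 23 changed sign. Of the other results, 55 values did. For the losses and gains of calls below, the cause was not tested. No paired analysis was possible because the replicate numbers only follow the order of deposit and pair no tumors between groups.

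With all 94 libraries, calls were lost at 3-6 h for CCN1 and CCN2 at 100 mg/kg (-0.78 and -0.63) and 200 mg/kg (-0.72 and -0.63), in cage group 7 (-1.04 and -0.65) and in cage group 5 (-0.86 and -0.71). They were also lost at 24 h and 200 mg/kg (-1.26 and -1.44), between the effects at 24 h and 1 h (-1.22 and -1.38), and for CCN2 between 200 and 30 mg/kg (-0.31). Calls were gained for CCN2 at 30 mg/kg and 24 h (-1.14) and for CCN1 between 100 and 30 mg/kg (-0.86). The sign turned for CCN2 between 100 and 30 mg/kg (0.37), for 200 mg/kg at 1 h (-0.0442 and -0.0613), for the dose trend of CCN1 at 1 h (-0.0388), for the log2 ratio at 200 mg/kg and 1 h (0.0172) and 100 mg/kg and 24 h (-0.20), and for the rho of deviations at 24 h (-0.0730).

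With quality weights both genes passed at 100 mg/kg and 24 h (-0.74 each), and CCN2 differed between 24 h and 3-6 h (-0.82). Without a filter CCN2 at 200 mg/kg and 3-6 h was lost (-0.63, limma adjusted p = 0.0535). Quantile normalization added CCN2 at 100 mg/kg and 24 h (-0.83) and turned the rho of untreated and vehicle tumors at 24 h (-0.0418). Fits of only the groups compared lost CCN1 and CCN2 at 200 mg/kg and 3-6 h (-0.72 and -0.63), CCN2 at 100 mg/kg (-0.63), CCN1 between 24 h and 1 h (-1.28), both between 200 and 30 mg/kg (-0.93 and -0.98) and CCN2 in cage groups 7 and 5 (-0.65 and -0.71). Against untreated tumors the values at 1 h turned for CCN1 at 30 and 100 mg/kg (0.23 and 0.27) and for CCN2 at 100 mg/kg (0.13), and both genes passed at 100 mg/kg and 24 h (-0.74 and -0.95). With vehicle cage group 2 alone, CCN1 in cage group 5 (-0.74) and CCN2 in cage groups 7 and 5 (-0.65 and -0.71) were lost, and with vehicle cage group 3 alone CCN2 in both (-0.65 and -0.71).

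Leaving out 1 tumor in turn changed a call or a sign for these results, given as lowest and highest value. At 1 h the log2 fold changes ranged from -0.22 to 0.0636 (CCN1) and -0.0217 to 0.16 (CCN2) at 30 mg/kg, and for CCN1 from -0.12 to 0.11 at 100 mg/kg and -0.0769 to 0.15 at 200 mg/kg. At 3-6 h CCN2 ranged from -0.71 to -0.53 at 100 mg/kg, -0.69 to -0.58 at 200 mg/kg, -0.82 to -0.45 in cage group 7 and -0.84 to -0.64 in cage group 5, and between cage groups from -0.22 to 0.15 (7 and 6) and -0.0900 to 0.0722 (vehicle). At 24 h CCN1 and CCN2 ranged from -0.88 to -0.53 and -0.90 to -0.54 at 100 mg/kg and from -1.11 to -0.81 and -1.07 to -0.82 between 200 and 30 mg/kg, and CCN1 from -0.16 to 0.0525 between vehicle and untreated. The effect of 200 mg/kg ranged from -1.46 to -1.15 for CCN1 between 24 h and 1 h and from -0.91 to -0.66 for CCN2 between 24 h and 3-6 h. The log2 ratio ranged from -0.0594 to 0.15 at 100 mg/kg and 1 h, -0.13 to 0.00098 at 30 mg/kg and 3-6 h, and -0.0565 to 0.25, -0.0883 to 0.22 and -0.0138 to 0.29 at 30, 100 and 200 mg/kg and 24 h. The rho of deviations ranged from 0.503 to 0.728 at 1 h and 0.279 to 0.532 at 24 h, that of untreated and vehicle tumors from -0.130 to 0.178 at 3-6 h and -0.310 to 0.238 at 24 h, and the trend of CCN1 at 1 h from -0.0735 to 0.135.

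The calls of CCN1 and CCN2 at 200 mg/kg and 24 h held without any 1 tumor, with values from -1.44 to -1.14 and from -1.54 to -1.29. Read depth is unknown, and only the number of genes detected stood in for it.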
